A study of Homo sapiens with 6 samples.

Results

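The 10 genes described here encode inhibitors of the ERK kinase pathway that the pathway itself switches on: the phosphatases DUSP1, DUSP4, DUSP5 and DUSP6, the Sprouty proteins SPRY1, SPRY2 and SPRY4, and the Sprouty-related proteins SPRED1, SPRED2 and SPRED3. They were chosen by symbol, and all 10 are among the 16000 genes with values in each of the 6 libraries. RNA of human lung adenocarcinoma lines was sequenced, with 1 library per line, from total RNA depleted of ribosomal RNA with a stranded kit. The 2 parents, PC-9 and HCC827, depend on a mutated, constantly active EGFR, and inhibitors of this kinase kill them. From each of them, as labelled, came 2 lines with acquired resistance, named PC-9GR, PC-9ER, HCC827GR and HCC827ER (1 label reads HCC82GR). All lines were grown in RPMI-1640 medium with serum. The labels leave GR and ER unexplained and do not say whether an inhibitor was in the medium, whether a line is 1 clone, or how often it was cultured.

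ERK is the last kinase of a relay that runs from growth factor receptors such as EGFR through RAS, RAF and MEK. Active ERK drives transcription factors that also transcribe its own brakes, so the messages of these brakes are widely read as a gauge of ERK output. DUSP phosphatases remove the activating phosphates from MAP kinases, Sprouty proteins act between the receptor and RAF, and SPRED proteins bring the RAS inactivator NF1 to the membrane.

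CPM here means counts per 1000000 of a library's total after a correction for composition (TMM). A run of 6 values starts with PC-9 and its derivatives PC-9GR and PC-9ER, and ends with HCC827, followed by its GR and its ER derivative. Total counts ranged from 14529332 to 17859787. The limit that a count of 0 allows, 3 counts, lay at 0.167 to 0.212 CPM. The library labelled PC-9GR stood apart: across 13492 genes its Spearman correlation was 0.774 with PC-9, 0.823 with HCC827 and 0.83 with HCC827GR. PC-9ER with PC-9 gave 0.958. That the library labelled PC-9GR came from PC-9 rests on its label and was not tested. Many fitted values and the pair counts are therefore also given without it, but not every value that moved. The 86 genes of ribosomal proteins took 16.3% of all counts in HCC827ER and 5.94% to 8.61% elsewhere. The keratins KRT7, KRT8 and KRT18 were at 1044 CPM or more in all 6 libraries, whereas the epithelial surface protein EPCAM was at 371, 1.91, 390.3, 439, 26.8 and 130.3 CPM. Endothelial markers (4 genes, among them PECAM1 and CDH5) summed to 213 CPM in PC-9, 53.6 in PC-9ER and below 1 CPM in the other 4 libraries. Leukocyte markers summed to 21.4 to 155 CPM, mostly from CD68, with CD3E at 0 counts in 5 libraries, and fibroblast markers to 3.17 to 39.6 CPM. The part of these transcripts in the results was not tested. The ER lines stand in a table of their own, so a difference between the tables and a difference of the ER lines cannot be told apart.

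In all 4 derived lines DUSP6 and SPRY4 were 7.35-fold to 72.4-fold below the parent, whereas DUSP1 was 2.34-fold to 23.9-fold above it. DUSP5, SPRY2, SPRED1 and SPRED2 were also lower in every derived line, by 1.28-fold to 5.64-fold. SPRY1 was much lower in the derivatives of PC-9 and close to its parent in those of HCC827, and DUSP4 and SPRED3 had no common direction. No member passed the test over all genes, which compared the 4 derived lines with their parents (adjusted p = 0.999 each, edgeR).

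DUSP6 (NCBI gene 1848, chromosome 12, 89347232 to 89353271, GRCh38), a cytoplasmic phosphatase selective for ERK, was at 90.8, 11.2, 7.03, 15.2, 1.42 and 0.423 CPM. Each parent was above both of its derivatives, and PC-9 was above every other library. HCC827ER held 6 counts of DUSP6, against 231 in HCC827. It was 8.10-fold below the parent in the library labelled PC-9GR and 12.9-fold in PC-9ER. Against HCC827 it was 10.7-fold lower in the GR and 35.9-fold lower in the ER derivative. The last ratio, 0.0279, had a 95% counting interval of 0.0101 to 0.0616. The fitted log2 fold change over both parents was -3.67 ± 0.56 (SE; unadjusted p = 0.000592), and -3.87 ± 0.57 without the library labelled PC-9GR. DESeq2 gave the same size and called the gene (adjusted p = 2.18e-05). A noncoding gene of the opposite strand, AC024909.2, shares 40.5% of the exon bases of DUSP6. The sources used here do not say whether the counting used strand.

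**Figure D1:**
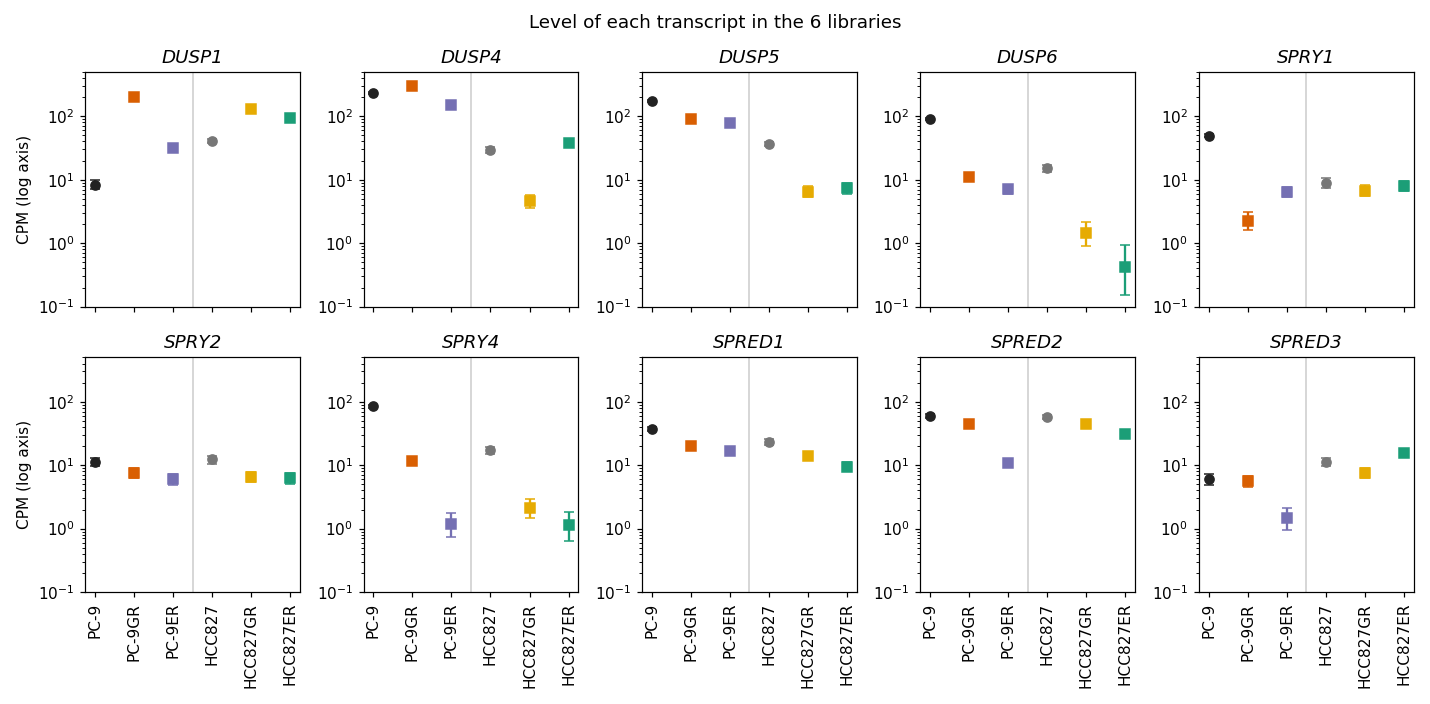
Level of each of the 10 transcripts in CPM on a log axis. Each point is 1 library, circles are parental and squares derived lines, the grey line parts PC-9 from HCC827 lines, and bars are exact 95% intervals for counting error only. In DUSP6 and SPRY4 the parent is above both derivatives on either side of the grey line, and in DUSP1 it is below them.

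DUSP5 (gene 1847, chromosome 10, 110497838 to 110511544), a nuclear phosphatase that acts on ERK, was at 172, 90.0, 78.6, 36.5, 6.48 and 7.33 CPM. It was lower in each derivative than in its parent, and the derivatives of PC-9 were above even parental HCC827. The ratios to the parent were 0.523 and 0.457 in the library labelled PC-9GR and in PC-9ER, and 0.177 and 0.201 in HCC827GR and HCC827ER. The counting intervals were 0.492 to 0.556 and 0.429 to 0.487 in PC-9 and 0.143 to 0.219 and 0.161 to 0.248 in HCC827. Those of HCC827 overlap. Those of PC-9 do not, and PC-9ER was at a ratio of 0.874 (interval 0.813 to 0.939) to the library labelled PC-9GR. The fitted change was -1.76 ± 0.40 (unadjusted p = 0.00467), -1.88 ± 0.43 without the library labelled PC-9GR and -1.03 ± 0.56 without HCC827. Its difference between the parents, -1.37 ± 0.83 for the HCC827 lines minus the PC-9 lines, was not called (adjusted p = 1, edgeR).

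DUSP4, a nuclear phosphatase of ERK and other MAP kinases, was at 229.9, 301, 148, 29.5, 4.63 and 37.2 CPM. The PC-9 lines were all above the HCC827 lines, and within each family the derivatives lay on either side of the parent. The largest departure was in HCC827GR, 6.38-fold below HCC827 (75 against 449 counts), while HCC827ER was at a ratio of 1.26 to the same parent (log2 0.33, and -0.02 with total counts in place of TMM). The fit gave -0.27 ± 0.79, with 0.12 ± 0.45 without HCC827GR, -0.56 ± 0.79 without the library labelled PC-9GR and -1.22 ± 0.85 without HCC827ER.

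DUSP1 (gene 1843, chromosome 5, 172768090 to 172771195) encodes a nuclear phosphatase that also acts on the stress kinases p38 and JNK and is quickly induced by stress and by growth factors. It was at 8.36, 199.5, 31.6, 40.6, 131 and 94.8 CPM. Each derivative was above its parent, and PC-9 had the lowest level of the 6. The ratio to the parent was 23.9 in the library labelled PC-9GR (interval 20.2 to 28.3), and 3.78 in PC-9ER. In HCC827GR it was 3.22, and in HCC827ER 2.34 (2.12 to 2.57). The last pair depended on the scaling: its log2 ratio was 1.22, and 0.87 with total counts in place of TMM, under which the median of all genes in that pair moved from 0 to -0.32. The fitted change was 2.47 ± 0.99 (unadjusted p = 0.0473), and 1.66 ± 0.40 without the library labelled PC-9GR. Leaving out a parent gave 1.47 ± 1.14 without PC-9 and 3.78 ± 1.32 without HCC827. DESeq2 did not call it (adjusted p = 0.289).

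As the only member above its parent in every line, DUSP1 is shown with the 250 bases before its RefSeq start (GRCh38.p14, chr5:172771196-172771445, minus strand). Capitals mark matches on both strands to motifs of factors that are known to act on genes of this kind. The core bound by ETS factors was searched as CCGGAA, and the site of the AP-1 factors, which holds FOS and FOSL1 proteins, as TGANTCA. The cyclic AMP response element (CRE) was searched as TGACGTCA, and its shorter form, which is also counted where it lies inside a full element, as TGACG. The box bound by the general transcription machinery near the start was searched as TATAAA. The site of serum response factor, the CArG box, was searched as CC and GG around a fixed run of A or T bases. The motifs were picked with the sequences in view.
DUSP1 upstream: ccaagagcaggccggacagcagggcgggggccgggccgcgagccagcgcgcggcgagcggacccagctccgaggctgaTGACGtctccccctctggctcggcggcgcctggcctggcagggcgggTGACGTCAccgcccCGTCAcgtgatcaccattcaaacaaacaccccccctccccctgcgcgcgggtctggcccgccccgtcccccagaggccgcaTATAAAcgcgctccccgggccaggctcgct
The window holds 1 full CRE, which 1.65% of the 35116 RefSeq windows of this length hold, and 1 TATA box, held by 10.7%. The shorter form was found 4 times, 2 of them inside the CRE, and 21.2% of windows hold it at least once. Windows were given for 8 of the 10 members, without DUSP4 and DUSP5. The DUSP6 window held no match to any of the motifs and that of SPRY4 only 1 short form of the CRE, but GENCODE places the DUSP6 window in a 5′ UTR and the SPRY4 window in part in an exon of a noncoding transcript. The CArG box, in 1.16% of all windows, was found at no member. The ETS core, in 14.5% of all windows, was found at 1 start each of SPRY1 and SPRY2, and the AP-1 site, in 6.57%, at 1 start of SPRED3. A TATA box was also found at 1 start of SPRED2, and 1 short form of the CRE at 1 start of SPRY2. A match is a string of letters and not a bound site.

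SPRY4 (gene 81848, chromosome 5, 142310427 to 142326455), a Sprouty protein that restrains receptor kinase signalling ahead of RAF, was at 84.8, 11.5, 1.17, 17.2, 2.10 and 1.13 CPM. PC-9 had the highest level, as for DUSP6. The ER lines had the lowest, whereas DUSP6 was lowest in the derivatives of HCC827. The 21 counts in PC-9ER and 16 in HCC827ER stood against 1481 and 261 in their parents, and the fold below the parent was 7.35, 72.4, 8.18 and 15.2. The fitted change was -3.58 ± 0.84 (unadjusted p = 0.00529), and -4.63 ± 0.79 without the library labelled PC-9GR. DESeq2 called it (adjusted p = 0.0377).

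SPRY1 (gene 10252, chromosome 4, 123396795 to 123403760) was at 49.6, 2.25, 6.47, 8.94, 6.72 and 7.97 CPM. Parental PC-9 alone was high, and the other 5 libraries lay below 10 CPM. The fold below PC-9 was 22.0 in the library labelled PC-9GR and 7.65 in PC-9ER. In HCC827GR the ratio to HCC827 was 0.752 (interval 0.579 to 0.975), and in HCC827ER it was 0.891 (0.688 to 1.15), a difference within counting error. The test of the difference between the parents gave 3.22 ± 1.36 (unadjusted p = 0.0566, adjusted p = 1, edgeR). Over both parents the fit gave -2.21 ± 0.92, and -1.49 ± 0.75 without the library labelled PC-9GR. Without parental PC-9 it was -0.28 ± 1.17, and without parental HCC827 -3.50 ± 0.90, so the value over both rested on PC-9.

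SPRY2 (gene 10253, chromosome 13, 80335976 to 80340951), which binds the ubiquitin ligase CBL and the adaptor GRB2, was at 11.3, 7.60, 5.97, 12.3, 6.54 and 6.20 CPM. The parents had nearly the same level (ratio 1.08, interval 0.882 to 1.33), and the 4 derived lines lay between 5.97 and 7.60 CPM. With TMM no pair reached 2-fold: the folds below the parent were 1.49, 1.90, 1.88 and 1.98. The counting intervals of the ratios in PC-9ER (0.412 to 0.669), HCC827GR (0.415 to 0.679) and HCC827ER (0.387 to 0.654) included 2-fold. The fit gave -0.84 ± 0.49 (unadjusted p = 0.133).

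SPRED1 (gene 161742, chromosome 15, 38252326 to 38357249), the partner of NF1 at the membrane, was at 37.6, 20.3, 16.8, 23.2, 13.8 and 9.52 CPM. Each derivative was below its parent by a like amount, 1.85-fold, 2.24-fold, 1.68-fold and 2.44-fold. Its fitted change was -1.0 ± 0.37 (unadjusted p = 0.0343). Its partner NF1 was at 114, 110.2, 58.3, 59.0, 75.7 and 28.6 CPM, with the ER lines below and HCC827GR above the parent.

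SPRED2 (gene 200734, chromosome 2, 65310851 to 65432637) was at 59.7, 43.9, 10.9, 57.0, 44.5 and 30.7 CPM. The parents had like levels, and PC-9ER stood lowest, 5.46-fold below PC-9, against 1.28-fold to 1.86-fold in the other pairs. The fit gave -0.87 ± 0.58, -1.42 ± 0.57 without the library labelled PC-9GR and -0.54 ± 0.46 without PC-9ER. SPRED3 (gene 399473, chromosome 19, 38388421 to 38399587) was at 5.96, 5.57, 1.45, 11.3, 7.59 and 15.7 CPM. It was 4.11-fold below the parent in PC-9ER, with 26 against 104 counts, and above the parent in HCC827ER, at a ratio of 1.38 (interval 1.13 to 1.70; log2 0.47, and 0.12 with total counts). Its fitted change was -0.38 ± 0.74, which ranged from -0.86 without the library labelled PC-9GR to 0.04 without PC-9.

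**Figure D2:**
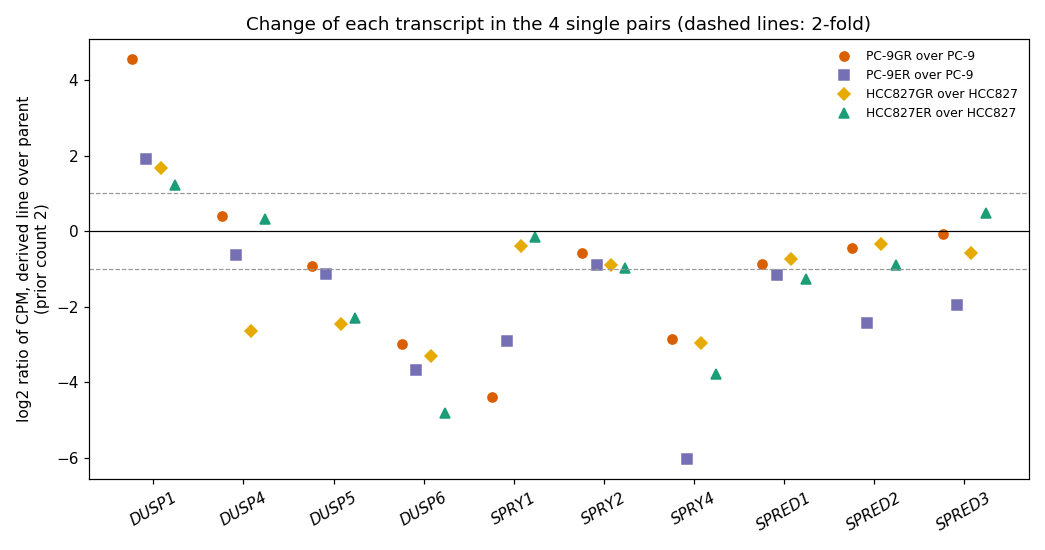
Log2 ratio of CPM (prior count 2) of each derived line over its parent for the 10 transcripts. Marker shape gives the pair and dashed lines mark 2-fold. All 4 points of DUSP6 and SPRY4 lie below the lower dashed line and all 4 of DUSP1 above the upper one.

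Counted by size in single pairs, where 1 library has at least 1 CPM, 7 of 10 members were at least 2-fold lower in PC-9ER, where 7.67% of genes were. In HCC827GR 4 of 10 were (9.15% of genes), in HCC827ER 4 of 10 (18.9%) and in the library labelled PC-9GR 3 of 10 (19.8%). DUSP1 was the only member at least 2-fold higher in any pair, where 21.9% and 5.39% of genes were in the GR and ER derivatives of PC-9 and 7.65% and 18.0% in those of HCC827. In the same order the median log2 ratio of the members was -0.73, -1.55, -0.82 and -0.93, beside 0.02, 0, 0 and 0 over 13770 expressed genes. The pairs of a parent share its single library. These counts for single pairs were made with TMM only. With total counts the median log2 ratio of all genes in HCC827ER over its parent was -0.32.

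Over the 4 pairs, DUSP6 and SPRY4 were at least 2-fold lower in each, as 0.690% of genes were, and DUSP1 at least 2-fold higher, as 0.392% were. By any size 7 of 10 members were lower in each pair, against 11.4% of genes. Over the 3 pairs without the library labelled PC-9GR, 3 were at least 2-fold lower, with DUSP5 added (0.930% of genes), 1 was at least 2-fold higher (0.625%) and 7 were lower by any size (16.2%). With any other derived library left out, 2 were at least 2-fold lower and 1 higher. The shares of genes were then 2.16% and 1.79% with PC-9ER left out, and 1.15% and 0.850% with HCC827GR left out. Leaving out HCC827ER gave 1.04% and 0.516%. These members were listed with earlier results of the same libraries known, so their counts are a description.

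In the fit over both parents 9 of 10 members had a negative log2 fold change, against 46.8% of genes, and 0 genes were called at an adjusted p of 0.05 (0%; edgeR). At an unadjusted p of 0.05 DUSP6, DUSP5, SPRY4 and SPRED1 were lower and DUSP1 higher, where 1.27% of genes were lower and 1.27% higher. DESeq2 called 34 genes, DUSP6 and SPRY4 among them, whereas 0 passed in limma-voom, where 152 genes were higher and 338 lower at an unadjusted p of 0.05. The spread in these tests is that between lines, and the single library of each parent enters it. No line has a second library, so repeat cultures are not covered.

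**Figure D3:**
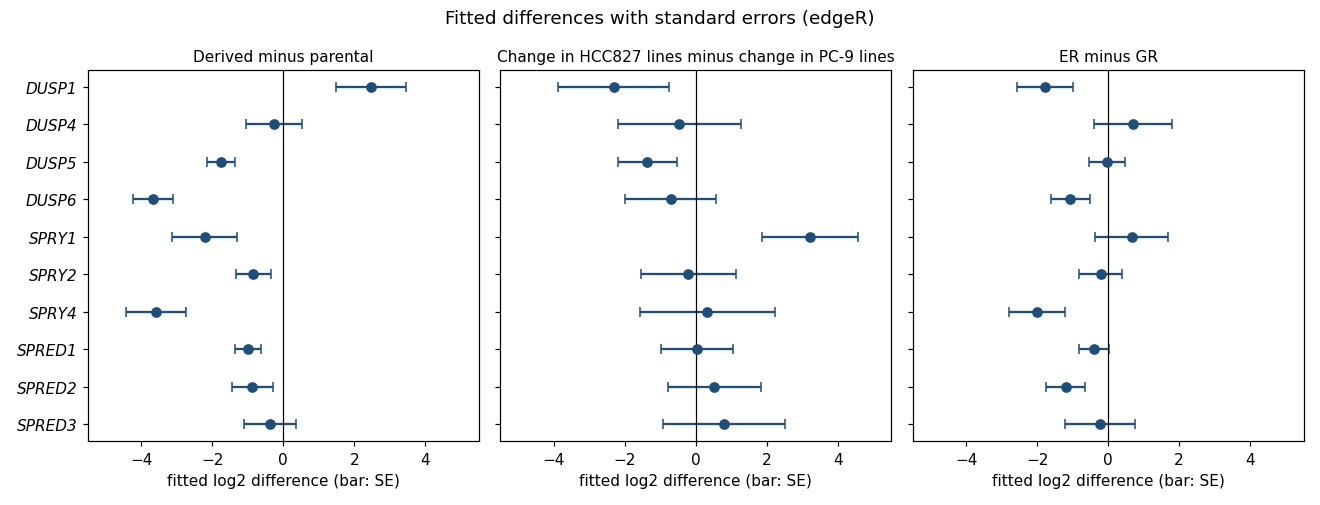
Fitted log2 differences of the 10 transcripts with bars of 1 standard error (edgeR), for derived minus parental lines, for the change in HCC827 lines minus that in PC-9 lines, and for ER minus GR lines. DUSP6 and SPRY4 have the lowest values on the left, and SPRY1 has the highest in the middle, at 3.22.

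The ER lines were compared with the GR lines of the same parent. SPRY4 was 9.85-fold lower in PC-9ER than in the library labelled PC-9GR and at a ratio of 0.538 (interval 0.277 to 1.00) in HCC827ER over HCC827GR. DUSP6 was lower in both ER lines, at ratios of 0.628 and 0.298. SPRED2 was lower in both, at 0.249 and 0.689, and DUSP1 at 0.159 and 0.725. DUSP4 went opposite ways, at 0.493 in the PC-9 derivatives and 8.03 in those of HCC827. The fitted ER minus GR differences were -2.0 ± 0.78 for SPRY4, -1.78 ± 0.79 for DUSP1, -1.20 ± 0.54 for SPRED2 and -1.07 ± 0.55 for DUSP6, and none passed (adjusted p = 0.693 each, edgeR). No gene was called in this comparison (0%). In this edgeR fit 8 of the members were lower in the ER lines, against 50.7% of genes. SPRY4 was the only member past the unadjusted threshold, where 2.89% of genes were lower and 4.01% higher. DESeq2 called 340 genes and limma-voom 0. These differences depended on single libraries. For SPRY4 the value was -0.93 without PC-9ER and -3.26 without HCC827ER, and for SPRED2 -0.51 and -2.03. For DUSP6 it was -1.83 without PC-9ER and -0.59 without HCC827ER. For DUSP1 it was -0.28 without the library labelled PC-9GR and -2.82 without HCC827GR. With the library labelled PC-9GR left out, SPRY4 was at -1.49, SPRED2 at -0.87 and DUSP6 at -1.12. DUSP4 then moved from 0.7 to 2.79.

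The change in HCC827 derivatives was also set against that in PC-9 derivatives. It was called for no member and for no gene (0%), with 0.482% of genes higher and 0.393% lower at an unadjusted p of 0.05, no member among them. Of the members 5 had a negative difference, against 52.0% of genes. Without the library labelled PC-9GR the difference was 2.63 ± 1.53 for SPRY1 and moved from 0.33 ± 1.89 to 2.75 ± 1.51 for SPRY4. It moved from -2.31 to -0.46 for DUSP1 and from -0.71 to -0.35 for DUSP6. For SPRED2 it moved from 0.52 to 1.83, and for SPRED3 from 0.8 to 2.05. DESeq2 called 25 genes and limma-voom 0.

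The parents themselves differed in these transcripts. HCC827 was below PC-9 in DUSP4 (7.79-fold), DUSP6 (5.98-fold), SPRY1 (5.54-fold), SPRY4 (4.95-fold) and DUSP5 (4.71-fold), and above it in DUSP1 (ratio 4.86) and SPRED3 (1.90). SPRY2 and SPRED2 were close, with ratios of 1.08 and 0.954. The transcript level of EGFR had the other order, at 1182 CPM in PC-9 and 5204 in HCC827. In the derived lines EGFR was at 349.6, 463, 584 and 1305 CPM, below the parent in each.

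Between genes, levels were compared as CPM per kilobase of merged exons. DUSP5 was the highest in PC-9, at 65.8, followed by DUSP4 (31.7), DUSP6 (19.6), SPRY4 (12.9), SPRY1 (12.5) and SPRED2 (11.6), with DUSP1 at 4.14. In HCC827 DUSP1 came first (20.1), followed by DUSP5 (14.0) and SPRED2 (11.1). DUSP1 also came first in the library labelled PC-9GR (98.8), in HCC827GR (64.7) and in HCC827ER (47.0), and stood behind DUSP5 (30.1) and DUSP4 (20.4) in PC-9ER (15.7). DUSP6 was at 0.0913 in HCC827ER, the lowest of the 10 there.

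Other transcripts driven by ERK were read beside them. Of 15 on the list, 14 had a negative fitted change, against 46.8% of genes, and 0 passed the test. Among the 14, IER3 (-0.04 ± 0.78), MYC (-0.12 ± 0.44) and LIF (-0.13 ± 0.43) were close to 0. By pair, 8 were lower in each of the 4 (11.4% of genes), and 1, SPHK1, was higher (11.6%). Without the library labelled PC-9GR these counts were 9 and 1 (16.2% and 17.2% of genes). The median log2 ratios of the list were -1.05, -1.74, -0.73 and -1.06. ETV5, a PEA3 family transcription factor, was at 74.2, 35.8, 1.84, 33.1, 14.4 and 15.8 CPM, and its relative ETV4 at 130.4, 53.9, 11.3, 23.1, 9.75 and 13.1 CPM. Both were lowest in PC-9ER within the PC-9 lines, where SPRY4 was lowest too. The immediate early factor EGR1 was at 2.98, 0.563, 0.167, 221, 57.9 and 1.20 CPM, the value in PC-9ER resting on 3 counts. The AP-1 subunit FOSL1 was at 92.2, 19.0, 39.6, 722, 311 and 105 CPM, and PHLDA1 at 131, 166, 42.8, 254, 163 and 102 CPM. EGR1 and FOSL1 were higher in HCC827 than in PC-9, unlike DUSP6 and SPRY4.

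**Figure D4:**
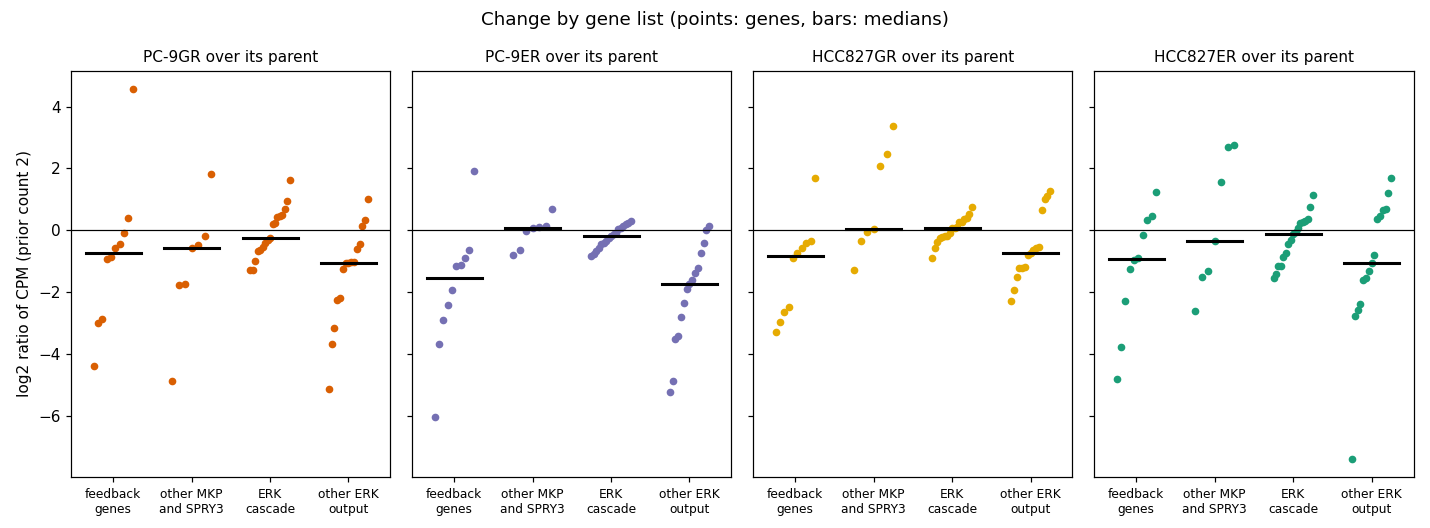
Log2 ratio of CPM (prior count 2) of each derived line over its parent for the 10 feedback genes, 7 related genes (other MAP kinase phosphatases, MKP, and SPRY3), 17 genes of the ERK cascade and 15 other ERK output transcripts. Points are genes and black bars medians. The medians of feedback and output genes are below 0 in each panel, and those of the cascade lie between -0.26 and 0.06.

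The kinases and adaptors of the cascade showed smaller differences. Of 17 genes on the list, 8 had a negative fitted change, against 46.8% of genes, and 0 passed. The medians of the list were -0.26, -0.19, 0.06 and -0.11, and none of its genes was at least 2-fold lower or higher in all 4 pairs. The adaptor GAB1 (11.8, 5.80, 7.87, 18.9, 9.99 and 6.42 CPM), the RAS activator SOS1 and the kinase BRAF (43.7, 17.8, 27.6, 26.2, 22.9 and 14.2 CPM) were lower in each pair. HRAS (14.1, 43.9, 16.4, 29.8, 31.6 and 35.4 CPM) and ARAF (43.5, 69.1, 44.6, 60.7, 72.6 and 77.9 CPM), named after their values were seen, were higher in each. Of all expressed genes 11.4% were lower and 11.6% higher in each of the 4 pairs. Without the library labelled PC-9GR 4 on the list were lower and 2 higher, where 16.2% and 17.2% of genes were.

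Among 9 partners of the feedback proteins, 4 had a negative fitted change, against 46.8% of genes, and 0 passed. RASA1, a RAS inactivator, was lower in each pair (68.7, 42.4, 41.6, 115, 47.1 and 14.8 CPM), and LZTR1, an adaptor for the degradation of RAS proteins, was higher in each (17.9, 34.9, 21.5, 34.0, 43.8 and 68.1 CPM). Of 6 genes of receptor-level feedback 4 had a negative fitted change, against the same 46.8% of genes, and 0 passed. ERRFI1, an inhibitor of EGFR itself, was at 169.6, 111, 102, 254, 217 and 62.0 CPM, and LRIG1 was higher in each pair, at 1.55, 9.69, 22.2, 1.58, 2.59 and 2.40 CPM. SOCS4 was lower in each. Of all expressed genes 11.4% were lower and 11.6% higher in each of the 4 pairs.

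The other MAP kinase phosphatases were read as a list of 7 that includes SPRY3. Of these, 4 had a negative fitted change, against 46.8% of genes, and 0 passed. Only SPRY3 was lower in each pair (3.21, 0.845, 2.01, 3.61, 3.45 and 1.20 CPM), as 11.4% of genes were. The next phosphatases were picked after their values were seen. DUSP9, a cytoplasmic ERK phosphatase and close relative of DUSP6, was at 0.229, 1.13, 0.223, 1.05, 12.1 and 7.40 CPM. DUSP8, which prefers stress kinases, was at 5.67, 4.00, 9.15, 4.47, 24.9 and 30.7 CPM, and DUSP16 at 44.3, 39.2, 48.5, 25.0, 105 and 74.3 CPM. These 3 were higher in both HCC827 derivatives than in HCC827. DUSP10 (18.3, 5.41, 19.8, 46.9, 19.1 and 7.61 CPM) and DUSP7 (26.7, 20.8 and 20.8 CPM in the HCC827 lines) were lower in both, as DUSP6 was.

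Immediate early transcripts and glucocorticoid-responsive transcripts, among which DUSP1 is often counted, were read beside DUSP1. Of 14 tested immediate early genes 8 had a negative fitted change, against 46.8% of genes, and 0 passed. By pair, of the 15 with at least 1 CPM in a library, 6 were lower and 2 higher in each of the 4. Of all expressed genes 11.4% were lower and 11.6% higher. Without the library labelled PC-9GR the counts on the list were 8 lower and 3 higher. The lower ones on the list include EGR3, which was not tested and had 1 count in HCC827 and 0 in its derivatives. FOS was at 6.93, 2.87, 1.17, 72.1, 34.0 and 0.635 CPM and FOSB at 1.20, 0.338, 0.558, 17.5, 4.93 and 0.776 CPM, both below the parent in each derivative. The 2 that were higher in each, as DUSP1 was, were ATF3 (2.92, 3.94, 8.82, 15.6, 28.6 and 28.6 CPM) and BTG2 (log2 ratios of 4.09, 0.90, 1.44 and 1.82), named after their values were seen. Of 9 glucocorticoid-responsive genes 3 had a negative fitted change, against the same 46.8% of genes, and 0 passed. GADD45B was higher in each pair (7.22, 35.7, 9.94, 37.5, 48.0 and 60.1 CPM), and ERRFI1, which is on this list too, was lower in each. The median log2 ratios of the 9 genes were 0.47, 0.06, -0.02 and 0.23. Without the library labelled PC-9GR, 1 of these 9 genes was lower and 2 were higher in each pair. In that setting 1 of the other phosphatases and SPRY3 was lower and 2 were higher, 2 of the partners were lower and 1 higher, and 3 of the genes of receptor-level feedback were lower and 1 higher. Of all expressed genes 16.2% were lower and 17.2% higher in that setting.

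The genes outside the group with the most similar course over the 6 libraries were found by Pearson's r of log2 CPM among 13482 tested genes. For DUSP6 these were NKAP (0.99), TMEM185B (0.988) and PHF12 (0.986), whose levels spanned much less, as in NKAP from 17.6 to 25.1 CPM. For SPRY4 they were MSRA (0.99), TNRC18 (0.961) and RRBP1 (0.958), and for DUSP1 HSPA12B (0.99), CHPT1 (0.989) and COL27A1 (0.987). Within the group SPRED1 was closest to DUSP6 (0.99), followed by DUSP5 (0.9) and SPRY4 (0.88), and DUSP1 and SPRY1 gave -0.89. The 6 points share 2 parents, and 32 genes were above 0.95 with DUSP6, so these values describe the libraries and carry no test.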

How the data were processed

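The members and gene lists were chosen with earlier results of these data known. The deposited values are expected counts per gene, made by the authors from total RNA libraries. The submitters' processing notes name HISAT2 2.0.4, GRCh38.p13 and Cuffdiff; the sources used here do not name the counting program. The first table held 16854 genes of 4 libraries and the second 16306 genes of the 2 ER lines. The 16000 genes in both were used and rounded. Of the values, 13.2% to 14.3% per library were not whole.

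Tests used edgeR 4.0.16 in R 4.3.3: TMM, the default expression filter (13492 genes, all 10 members among them), robust quasi-likelihood F tests and Benjamini-Hochberg adjustment at 0.05. Line of origin was a term, and 3 residual degrees of freedom were left (2 in the other comparisons). DESeq2 1.42.0 and limma-voom 3.58.1 were alternatives. Log2 ratios of pairs, and the pair counts drawn from them, use a prior count of 2. Ratios and folds that are not in log2 use no prior count. The exact conditional binomial intervals of these ratios, at 95%, cover counting error only, since reads carry no molecular identifiers. Scripts were tested on simulated data. Positions and exon lengths are from GENCODE on GRCh38, and upstream bases from RefSeq.

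From each other list the rule named up to 3 genes of 1 direction in all 4 pairs with the largest smallest ratio, and always ETV4, ETV5, EGR1, PHLDA1, EGFR and NF1. The 3 most similar genes were named for DUSP6, SPRY4 and DUSP1.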

Additional observations from a re-analysis of the deposited data

Results flagged for a closer look

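In 5 genes of the pathway lists read beside the members, both PC-9 derivatives were below the parent and both HCC827 derivatives above theirs, and in 2 genes the reverse held. The share of all genes that split in these ways was not counted, so the counts are a description and not a result about these lists. The test of that difference, HCC827 minus PC-9, called none of them (adjusted p = 1 each, edgeR). EPHA4, an Eph receptor, was at 32.7, 2.42, 6.25, 0.263, 0.802 and 1.13 CPM, a difference of 4.76 ± 1.72 (log2, SE). Its values in HCC827, HCC827GR and HCC827ER rest on 4, 13 and 16 counts. HBEGF, an EGFR ligand, was at 82.1, 2.20, 24.5, 18.8, 40.7 and 29.6 CPM, a difference of 3.52 ± 1.94. MYC was at 262, 128, 194, 380.1, 596 and 518 CPM, a difference of 1.25 ± 0.91. CBLB, a ubiquitin ligase related to CBL, was at 30.2, 23.4, 21.3, 8.15, 12.2 and 13.1 CPM, a difference of 1.07 ± 1.00. SRF, the factor of the CArG box, was at 86.4, 52.0, 84.2, 61.4, 71.3 and 87.9 CPM, a difference of 0.72 ± 0.90. The reverse held for the immediate early factor NR4A1, at 1.03, 61.3, 1.12, 2.63, 0.617 and 1.48 CPM with a difference of -6.23 ± 3.21, and for NR3C1, the glucocorticoid receptor, at 55.9, 144, 58.1, 53.8, 52.9 and 30.5 CPM with a difference of -1.23 ± 1.12. In PC-9ER the log2 ratios of SRF, NR4A1 and NR3C1 were within 0.10 of 0, and in HCC827GR that of NR3C1 was -0.02. No member of the DUSP, SPRY and SPRED group split this way.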

How the results depend on the processing

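DESeq2 called 34, 25 and 340 genes in derived against parental, the difference between parents and ER against GR, where edgeR called 0 in each. Leaving out 1 library at a time gave 0 to 0 calls in the first, 0 to 506 in the second (12 without the library labelled PC-9GR, 506 without PC-9ER) and 0 to 1287 in the third (54 without PC-9GR, 1287 without HCC827GR), with 1 residual degree of freedom in the last comparisons. The cause was not tested. Without PC-9 or HCC827 the difference between parents could not be fitted. The fits pair lines by origin; without that term (no replicate block) 0 genes were called in derived against parental, with 88 higher and 78 lower at an unadjusted p of 0.05. Among members, DUSP1 in ER against GR passed without HCC827GR (-2.82, adjusted p = 0.0051, edgeR).

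With 1 library left out at a time, these fitted log2 values crossed 0 (lowest to highest). In ER against GR they were DUSP4 (-0.76 to 2.79), DUSP5 (-0.46 to 0.53), SPRED3 (-1.83 to 0.92) and SPRY1 (-0.30 to 2.37). In derived against parental they were DUSP4 (-1.22 to 0.12) and SPRED3 (-0.86 to 0.04). In the difference between parents they were DUSP4 (-2.61 to 0.37), SPRED1 (-0.27 to 0.30), SPRED2 (-0.14 to 1.83) and SPRY4 (-0.51 to 2.75). With limma-voom SPRED3 in ER against GR was at 0.02, and with total counts SPRED1 in the difference was at -0.05; the cause was not tested. All members but DUSP4 and SPRED3 kept their direction in derived against parental under the 13 alternatives run. In single pairs, the count of members at least 2-fold lower in every pair was 4 at 1.5-fold, and that of members at least 2-fold higher was 0 at 3-fold and 0 with total counts. Leaving out each derived library, the lower count ranged from 2 to 3.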
